A study of Mus musculus with 9 samples.

Results

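Cd36, Fam55b, Reln, Akap7, Tac2, Myl4, Gpc4 and Gm12839 were the 8 genes, of 23285 in the deposited table, selected for large falls from control erythroblasts to both groups of Trim28-deleted erythroblasts, with leukocyte lineage markers left aside. The choice rested on the group levels described here, so the distance of these genes from the control describes the selection and is given with no test. Trim28 encodes a co-repressor that KRAB zinc finger proteins bring to DNA. RNA was sequenced from sorted mouse bone marrow erythroblasts in 9 libraries, 3 per group, and all mice were C57BL/6. FFa was the control, TRIM28(flox/flox) without Cre, sorted as CD71(hi)TER119(+) cells. KOa was TRIM28(flox/flox):Mx1Cre from the same CD71(hi)TER119(+) gate. KOb was TRIM28(flox/flox):Mx1Cre from the CD71(hi)TER119(-) gate, the less mature fraction by these surface markers. The mutants were studied 2 weeks after 5 doses of poly(I:C), which switches on the interferon-inducible Mx1 promoter, and whether FFa mice received it is not given. Mx1Cre is not restricted to erythroid cells, and Cre and the deletion cannot be told apart because only the mutants carried Cre. The labels give undeleted Trim28 as 5 to 8% in KOa and 1 to 4% in KOb. Between the mutants, the gate and the degree of deletion therefore also cannot be told apart. No TER119(-) control was among the groups. The gate and the genotype thus cannot be told apart in any comparison of KOb with FFa.

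An erythroblast builds haemoglobin and membrane proteins while it divides, and then loses its nucleus. Of the 8 genes, CD36 is known in this lineage as a surface protein of erythroid progenitors, and the others are better known elsewhere: reelin and neurokinin B (from Tac2) as signals of the nervous system, MYL4 in embryonic and atrial muscle, and glypican 4 on cells of developing tissues. They share no pathway by their textbook roles.

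Levels are FPKM, fragments scaled by transcript length and by library depth, which can be compared between genes. The deposited table gives 1 FPKM per gene and group with the libraries already pooled, so no spread over libraries and no n can be given. The error after a log2 ratio (±) is the standard error implied by the test statistic in the authors' deposited table. Trim28 itself was at 26.0 FPKM in FFa, 6.64 in KOa and 4.76 in KOb. That left 25.5% and 18.3% of the FFa level, above the undeleted shares in the labels. The labels also give residual mRNA, as 26% in KOa and 18% in KOb. The log2 ratio of Trim28 in KOb over KOa was -0.48 ± 0.32. The sorted cells carried erythroid markers in every group: Gata1 was at 118, 138 and 105 FPKM and Klf1, an erythroid transcription factor gene, at 79.2, 80.6 and 62.0 FPKM in FFa, KOa and KOb. In bulk RNA, fewer cells of a type and less RNA per cell cannot be told apart, and this holds for every level below.

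Of the 8 genes, 8 lay under 10% of FFa in KOb, but only 7 in KOa. Fam55b kept 38.5% of its control level in KOa and so goes against the description of genes nearly lost in both mutants. Of 8020 genes with at least 1 FPKM in FFa, 0.96% lay under 10% of the control in KOa and 0.973% in KOb. A gene is called where the authors' deposited table gives a completed test with a q, the p-value adjusted for multiple tests, under 0.05. All 8 genes were called lower in both mutants in that table, beside 14.1% of tested genes in KOa and 15.2% in KOb; since the rule used these contrasts, nothing is read from those counts. The median log2 ratio of the 8 genes was -4.49 in KOa and -5.78 in KOb, beside -0.08 and -0.01 over all tested genes.

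**Figure D1:**
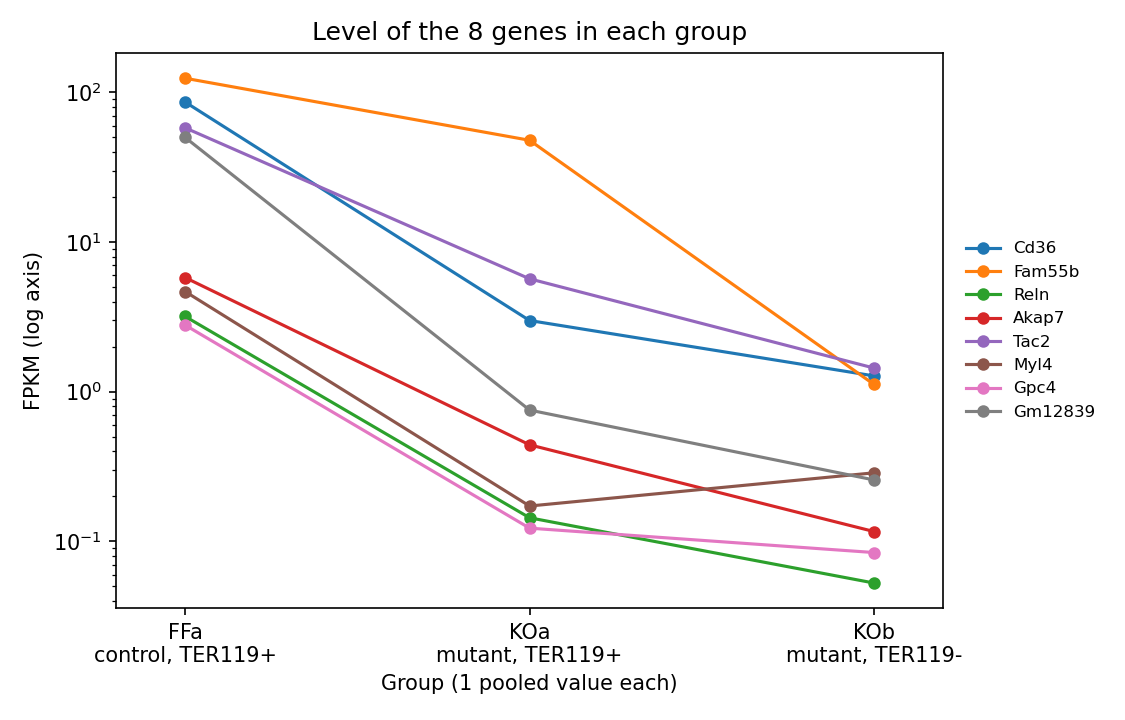
FPKM (log axis) of the 8 genes in the 3 groups, 1 pooled value per gene and group, joined by lines. All 8 lie highest in FFa; Fam55b is the only one above 10% of its FFa level in KOa (47.8 FPKM), and Myl4 the only one higher in KOb than in KOa.

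Cd36 (mm10, chr5:17781690-17888959, minus strand) encodes a scavenger receptor that takes up long-chain fatty acids and oxidised lipids. It was among the more abundant of the 8 genes in the control, at 86.2 FPKM, and stood at 2.99 FPKM in KOa and 1.27 in KOb. That left 3.47% and 1.48% of the FFa level, log2 ratios of -4.85 ± 0.34 and -6.08 ± 0.40. Ranked by log2 ratio from the lowest among the 8020 genes, it was number 29 in KOa and number 20 in KOb. Gpc4 (chrX:52053018-52164923, minus strand) encodes glypican 4, a membrane-anchored heparan sulfate proteoglycan that holds growth factors at the cell surface. It was the lowest of the 8 in FFa, at 2.79 FPKM, and was at 0.123 in KOa and 0.0842 in KOb, with log2 ratios of -4.51 ± 1.02 and -5.05 ± 1.18. Transcripts of both genes were low in both mutants, but Gpc4 started about as low as Reln and its errors are wide.

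The secreted products were Reln and Tac2. Reln (chr5:21884454-22344705, minus strand) encodes reelin, an extracellular glycoprotein that binds the lipoprotein receptors VLDLR and LRP8. It was at 3.18 FPKM in FFa, 0.144 in KOa and 0.0527 in KOb, with log2 ratios of -4.47 ± 0.52 and -5.92 ± 0.77. Tac2 (chr10:127724478-127731768, plus strand) encodes the precursor of neurokinin B, a peptide of the tachykinin family. Its level was 57.9 FPKM in FFa, 5.68 in KOa and 1.44 in KOb, with log2 ratios of -3.35 ± 0.42 and -5.33 ± 0.71. At 9.80% of FFa in KOa, Tac2 was the closest to the 10% line of those that passed it there. Both genes were lower in KOb than in KOa by level.

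Inside the cell, Akap7 and Myl4 encode a signalling anchor and a contractile protein. Akap7 (chr10:25169090-25299163, minus strand) belongs to the A-kinase anchoring proteins, which tether protein kinase A to membranes and channels. It was at 5.79 FPKM in FFa, 0.442 in KOa and 0.116 in KOb, with log2 ratios of -3.71 ± 0.54 and -5.64 ± 0.93. Myl4 (chr11:104550663-104587219, plus strand) encodes an essential light chain of myosin. It was at 4.67 FPKM in FFa, 0.172 in KOa and 0.287 in KOb, with log2 ratios of -4.76 ± 1.14 and -4.02 ± 1.04. Myl4 was the only one of the 8 that kept more of its control level in KOb (6.15%) than in KOa (3.69%).

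Fam55b, listed as Nxpe2 by RefSeq (chr9:48318004-48340898, minus strand), belongs to a family named for neurexophilin and esterase-like domains. It was the most abundant of the 8 in FFa, at 124 FPKM, and stood at 47.8 in KOa and 1.12 in KOb. The log2 ratio for Fam55b was -1.38 ± 0.28 in KOa, rank 445 of 8020, and -6.80 ± 0.38 in KOb, rank 17. Gm12839 (chr4:115582038-115583127, minus strand) is listed by RefSeq as Cyp4b1-ps2, a transcribed pseudogene of a cytochrome P450 gene. It was at 50.0 FPKM in FFa, 0.754 in KOa and 0.257 in KOb, with log2 ratios of -6.05 ± 0.72 and -7.60 ± 1.04, the lowest pair among the 8. Fragments of a pseudogene can be split with near-identical copies, so the level of Gm12839 is uncertain in all groups.

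The sequence before the start of transcription is shown for 4 of these genes, 250 bases 5′ to 3′ on the strand of the gene, because the 4 differ in composition and in the erythroid motif letters they hold. The words searched on both strands were AGATAA or AGATAG or TGATAA or TGATAG, which are bound by GATA factors, and CCNCNCCC, a CACC-box form bound by KLF1. Capitals mark every match. Sequences come from the RefSeq promoter table of build GRCm38.p6, which held 7 of the 8 genes with 8 start sites. Which start these cells use was not measured, and the Cd36 start lies inside the span the deposited table gives for the gene. The positions are chr5:17835897-17836146 for Cd36, chr9:48340899-48341148 for Fam55b, chr5:22344706-22344955 for Reln, all on the minus strand, and chr10:127724228-127724477 for Tac2 on the plus strand.
Cd36: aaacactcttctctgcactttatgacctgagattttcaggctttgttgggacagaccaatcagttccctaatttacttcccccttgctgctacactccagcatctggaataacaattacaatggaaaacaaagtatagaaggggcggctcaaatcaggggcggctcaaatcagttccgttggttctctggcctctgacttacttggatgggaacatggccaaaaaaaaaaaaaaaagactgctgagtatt
Fam55b: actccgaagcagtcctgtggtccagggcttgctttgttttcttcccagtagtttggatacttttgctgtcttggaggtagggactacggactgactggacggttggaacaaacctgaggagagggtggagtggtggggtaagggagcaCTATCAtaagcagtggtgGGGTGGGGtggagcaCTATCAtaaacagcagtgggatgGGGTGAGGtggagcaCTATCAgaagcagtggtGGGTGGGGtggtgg
Reln: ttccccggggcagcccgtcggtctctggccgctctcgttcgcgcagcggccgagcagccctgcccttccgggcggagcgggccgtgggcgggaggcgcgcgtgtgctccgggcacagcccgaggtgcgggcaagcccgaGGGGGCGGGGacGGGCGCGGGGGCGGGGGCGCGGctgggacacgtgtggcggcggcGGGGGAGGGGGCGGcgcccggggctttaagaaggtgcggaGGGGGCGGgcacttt
Tac2: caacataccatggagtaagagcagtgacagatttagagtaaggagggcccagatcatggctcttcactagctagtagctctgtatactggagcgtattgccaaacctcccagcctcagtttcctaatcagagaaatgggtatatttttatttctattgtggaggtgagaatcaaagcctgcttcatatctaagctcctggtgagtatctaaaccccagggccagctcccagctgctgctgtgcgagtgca

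In the Fam55b sequence the printed strand reads CTATCA in 3 places, at -102, -69 and -31 from the start, each within a similar stretch of letters. Of 32851 promoters of the same length, 26.5% held at least 1 of the GATA words and 1.35% held 3 or more. Fam55b was the only 1 of the 8 start sites with a match, and no match says only that these letters are not in the window. The CACC form was in 4 of the 8 start sites, those of Reln, Fam55b, Gpc4 and Myl4, and in 45.9% of all promoters. Reln had 10 such matches, counted where they overlap and lying in 4 separate stretches, a number of matches reached by 0.95% of promoters counted the same way, in a window that was 80.0% G or C against a median of 52.4% in the table. None of the Reln matches holds CACC or GGTG (CACC on the other strand), letters that the form CCNCNCCC does not require. Cd36 and Tac2 were at 43.2% and 47.2% G or C and had neither motif. No GATA match overlapped a CACC match, and the matches are descriptions of letters, not of binding.

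Between the mutants, most of the 8 genes were lower still in the TER119(-) cells. This comparison was not part of the choice, although the level in each mutant was, so it too is a description. Of the 8, 7 had a lower level in KOb, and the median log2 ratio of KOb over KOa was -1.50, beside 0.05 over all tested genes. The authors' deposited table completed a test for 5 of them and called 4 lower and 0 higher, beside 6.19% of all tested genes called lower and 10.0% called higher. Fam55b differed most, with a log2 ratio of -5.42 ± 0.38 in the authors' deposited table (q = 0.000619). Cd36 was at -1.23 ± 0.44 (q = 0.000619), Tac2 at -1.98 ± 0.77 (q = 0.00328) and Akap7 at -1.93 ± 1.03 (q = 0.0499) on the log2 scale in that table. Gm12839 was not called, at -1.55 ± 1.25 (q = 0.346 in the authors' deposited table). Reln, Gpc4 and Myl4 had no completed test, with log2 ratios of -1.45, -0.54 and 0.74.

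These calls depend on how the deposited statistic is read. The Benjamini-Hochberg q for Fam55b was 8.8e-43 when the statistic in the authors' deposited table was taken as standard normal, and the other 3 were not called: 0.0672 for Cd36, 0.113 for Tac2 and 0.345 for Akap7. Scaling both mutants to the same sum over all genes added 0.95 to every log2 ratio of KOb over KOa, which left Fam55b at -4.47, Tac2 at -1.03, Akap7 at -0.97 and Cd36 at -0.28 and turned Gpc4 to 0.41.

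**Figure D2:**
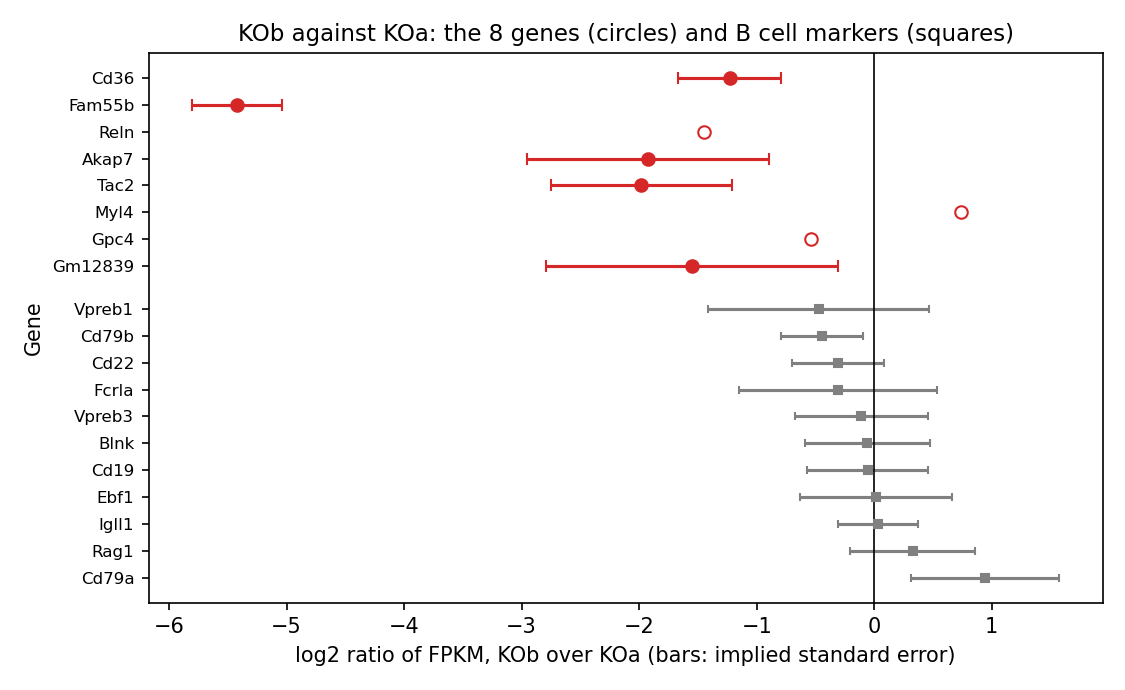
Log2 ratio of FPKM, KOb over KOa, for the 8 genes (red circles) and the B cell markers with a completed test (grey squares); bars are the implied standard error and open circles had no completed test. Fam55b lies far to the left at -5.42, and Cd36, Akap7, Tac2 and Gm12839 lie below 0 by more than 1 standard error. Among the B cell markers, Cd79b (-0.44 ± 0.35) and Cd79a (0.94 ± 0.63) also lie more than 1 standard error from 0, on opposite sides. In the authors' deposited table Gm12839 was not called, nor was any of the 11 tested B cell markers.

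Markers of maturity moved between these gates as well. Of 16 late erythroblast genes tested, 9 were called lower and 0 higher in KOb against KOa in the authors' deposited table. Their median log2 ratio was -0.49. Of all tested genes, 6.19% were called lower and 10.0% higher between the mutants. Against FFa, 6 of the 16 were lower in KOa and 14 in KOb, and 0 were higher in either. The shares of all tested genes against FFa were 14.1% lower and 7.99% higher in KOa, and 15.2% and 12.8% in KOb. Among 9 early erythroid and progenitor genes, 4 were called higher and 2 lower in KOb against KOa. Against FFa, 1 was higher and 2 lower in KOa, and 3 higher and 1 lower in KOb. Kit, the stem cell factor receptor of early progenitors, was at 0.399 FPKM in FFa, 0.751 in KOa and 2.36 in KOb. Cdk6, a cell cycle kinase, was at 3.14, 4.47 and 13.0 FPKM. The 2 called lower between the mutants were Lyl1, a blood transcription factor gene, at 59.8, 55.9 and 39.0 FPKM, and Epor, the erythropoietin receptor gene, at 40.0, 42.6 and 31.0. Of 20 erythroid transcription factor genes, 4 were called higher and 0 lower in KOa, and 4 higher and 3 lower in KOb, against FFa. Whether maturity has a part in the levels of the 8 genes was not tested.

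Markers of several other blood cells were also lower in the mutants. The summed level of the 15 B cell markers was 262 FPKM in FFa, 26.3 in KOa and 23.9 in KOb, that is 10.1% and 9.15% of the control, and 12 of 15 were called lower in KOa and 13 in KOb. The 16 macrophage and monocyte markers summed to 378, 112 and 99.8 FPKM, with 9 of 14 tested called lower in KOa, 14 of 14 in KOb, and 4 of 12 lower in KOb against KOa. Granulocyte markers summed to 49325, 16844 and 13675 FPKM, and S100a8 and S100a9, which encode calcium-binding proteins of neutrophils, gave 34935 and 10284 FPKM of the FFa sum. Of 16 granulocyte markers tested, 7 were called lower and 2 higher in KOa, and 9 lower and 2 higher in KOb. The 2 called higher in both were genes of granule enzymes, Mpo at 8.15, 21.7 and 27.3 FPKM and Ctsg at 3.35, 15.9 and 20.2. Megakaryocyte markers summed to 39.6, 71.7 and 59.4 FPKM. Of 8 megakaryocyte markers tested, 4 were called higher and 1 lower in KOa, and 4 higher and 2 lower in KOb. Over the 8 lists of other cell types, 36 of 77 tested genes were called lower in KOa and 50 of 78 in KOb, and 10 and 9 were called higher. Of all tested genes, 14.1% were called lower in KOa and 15.2% in KOb, and 7.99% and 12.8% higher. No list had a marker at 0 in all groups. Cd36 is also known on macrophages and platelets. The macrophage and monocyte sum was at 29.5% of FFa in KOa and 26.4% in KOb. Lyz2 alone gave 284 FPKM of that sum in FFa. The part of other cells in the levels of the 8 genes was not tested.

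Most genes related to the 8 by family or pathway were not called. In 7 lists of related genes, 89 genes were in the table, and in KOa 3 were called higher and 7 lower of 52 tested, beside 7.99% and 14.1% of all tested genes. In KOb 5 were higher and 8 lower of 51, beside 12.8% and 15.2%. The median log2 ratio was -0.09 in KOa and -0.12 in KOb. Between the mutants 5 of 50 were called higher and 3 lower in KOb, beside 10.0% and 6.19%. With the statistic in the authors' deposited table taken as standard normal, 0 were called higher and 3 lower in KOa, 2 and 3 in KOb, and 1 and 0 between the mutants.

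**Figure D3:**
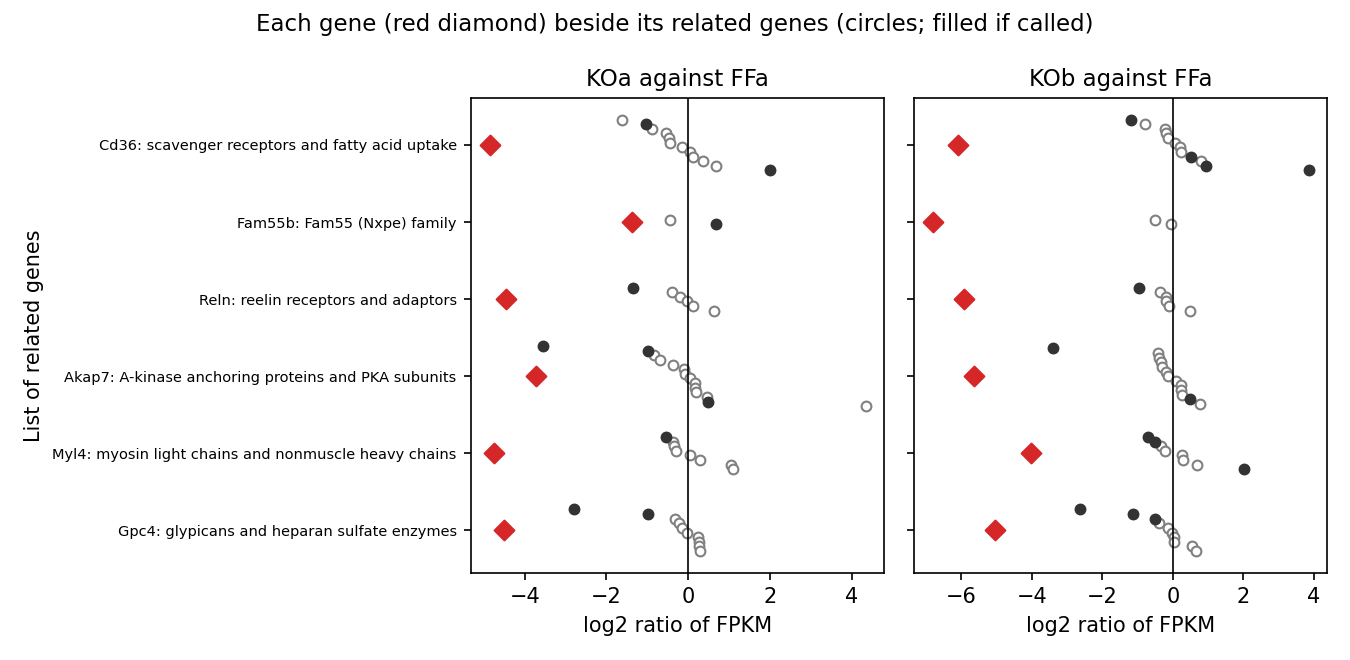
Log2 ratio of FPKM against FFa for each gene (red diamond) and the tested genes of its list (circles, filled where called in the deposited table), KOa on the left and KOb on the right. Each red diamond lies to the left of every tested gene of its list, with Akap12 closest to Akap7 in KOa (-3.54 and -3.71), and most related genes lie nearer to 0. The genes shown as diamonds were chosen for large falls in these ratios and the related genes were not, so nothing is read from this order.

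Around Cd36, the list held scavenger receptors, fatty acid binding proteins and acyl-CoA synthetases. Of 12 tested, Acsl1, which joins fatty acids to coenzyme A, fell from 59.6 FPKM in FFa to 28.9 in KOa and 26.2 in KOb, log2 ratios of -1.04 ± 0.28 and -1.19 ± 0.28 (q = 0.000619 for both in the authors' deposited table). Fabp5, a fatty acid binding protein, rose from 0.602 FPKM to 2.40 and 8.71, log2 ratios of 2.0 ± 0.77 and 3.85 ± 0.73 (q = 0.0262 and 0.000619 in that table). Acsl5 rose in KOb, from 9.58 FPKM in FFa to 18.5, and was at 10.4 in KOa, where it was not called; the difference between the mutants was called, at 0.83 ± 0.29. Cpt1a, which carries fatty acids into mitochondria, was called higher in KOb, at 12.5 FPKM against 8.71 in FFa. Members of this list were thus called in opposite directions.

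Of the reelin receptors and adaptors, 6 were tested and only Fyn, a Src family kinase, was called: it fell from 1.84 FPKM to 0.719 in KOa and 0.947 in KOb, log2 ratios of -1.35 ± 0.49 and -0.95 ± 0.46 in the authors' deposited table. Lrp8, a reelin receptor, was at 0.510, 0.790 and 0.710 FPKM and was not called. None of the 5 tachykinin relatives of Tac2 had a completed test, and their summed level was 0.340 FPKM in FFa, 0.574 in KOa and 0.297 in KOb.

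Among the A-kinase anchoring proteins and protein kinase A subunits, Akap12, another membrane-associated anchor, was low in both mutants as well. Its level was 2.28 FPKM in FFa, 0.196 in KOa and 0.215 in KOb, log2 ratios of -3.54 ± 0.58 and -3.41 ± 0.56 (q = 0.000619 for both in the authors' deposited table). Prkar1a, a regulatory subunit of the kinase, rose from 8.83 FPKM to 12.4 in each mutant. Prkacb, a catalytic subunit, fell from 2.21 FPKM to 1.12 in KOa and was at 1.77 in KOb, where it was not called. Between the mutants Akap1 and Prkacb were called higher and Akap13 lower in KOb.

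Of 8 other myosin genes tested, Myh10, a nonmuscle heavy chain, fell from 18.2 FPKM to 12.4 in KOa and 11.1 in KOb, log2 ratios of -0.55 ± 0.29 and -0.72 ± 0.29 in the authors' deposited table. Myh9 was called lower in KOb, at 34.0 FPKM against 47.9 in FFa, and Myl6b, a light chain, was called higher there, at 2.54 FPKM against 0.628. Among 10 tested glypicans and heparan sulfate enzymes, Ext1, which extends the heparan sulfate chain, fell from 2.44 FPKM to 0.352 in KOa and 0.394 in KOb. Its log2 ratios were -2.79 ± 0.58 and -2.63 ± 0.56 (q = 0.000619 for both in the authors' deposited table). Hs2st1, a sulfotransferase, was called lower in KOa and Extl3 and Ndst1 in KOb.

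Most genes beside the 8 on the chromosomes had low levels. Of the 20 nearest genes, 15 lay under 1 FPKM in all groups and 7 had a completed test in each comparison. In each mutant against FFa, 1 of the 7 was called higher and 1 lower, and between the mutants 0 and 1. The shares of all tested genes were 7.99% higher and 14.1% lower in KOa, and 12.8% and 15.2% in KOb. Between the mutants they were 10.0% and 6.19%. Cdc27, a subunit of the anaphase-promoting complex, starts 42 bases from Myl4 on the other strand. Its level was 8.14 FPKM in FFa, 7.97 in KOa and 8.18 in KOb, with log2 ratios of -0.03 ± 0.29 and 0.01 ± 0.29 (q = 0.926 and 0.988 in the authors' deposited table), beside -4.76 and -4.02 for Myl4. The letters between the annotated starts are shown because both genes point away from them (GRCm38.p6, chr11:104550621-104550662, plus strand, no motif match).
Myl4 to Cdc27: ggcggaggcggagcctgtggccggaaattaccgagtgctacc

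Fam55d, a family member of Fam55b and its neighbour at 21142 bases, was at 8.21 FPKM in FFa, 13.2 in KOa and 7.90 in KOb. It was called higher in KOa, at 0.69 ± 0.29, and lower in KOb against KOa, at -0.74 ± 0.29 (q = 0.000619 for both in the authors' deposited table), and these calls were lost when that statistic was taken as standard normal. Epb4.1l2, a membrane skeleton protein gene 60634 bases from Akap7, was at 1.93, 0.423 and 0.421 FPKM. It was the neighbour called lower in both mutants, with log2 ratios of -2.19 ± 0.52 and -2.20 ± 0.52 (q = 0.000619 for both in the authors' deposited table). Its log2 ratio between the mutants was -0.01 (q = 0.993 in that table), beside -1.93 for Akap7. Orc5, a replication origin protein gene beside Reln, was called higher in KOb, at 6.25 FPKM against 3.73 in FFa (q = 0.0166 in the authors' deposited table), a call that was lost in the same way. Gpc3, beside Gpc4, was at 0.0546 FPKM or lower in every group.

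**Figure D4:**
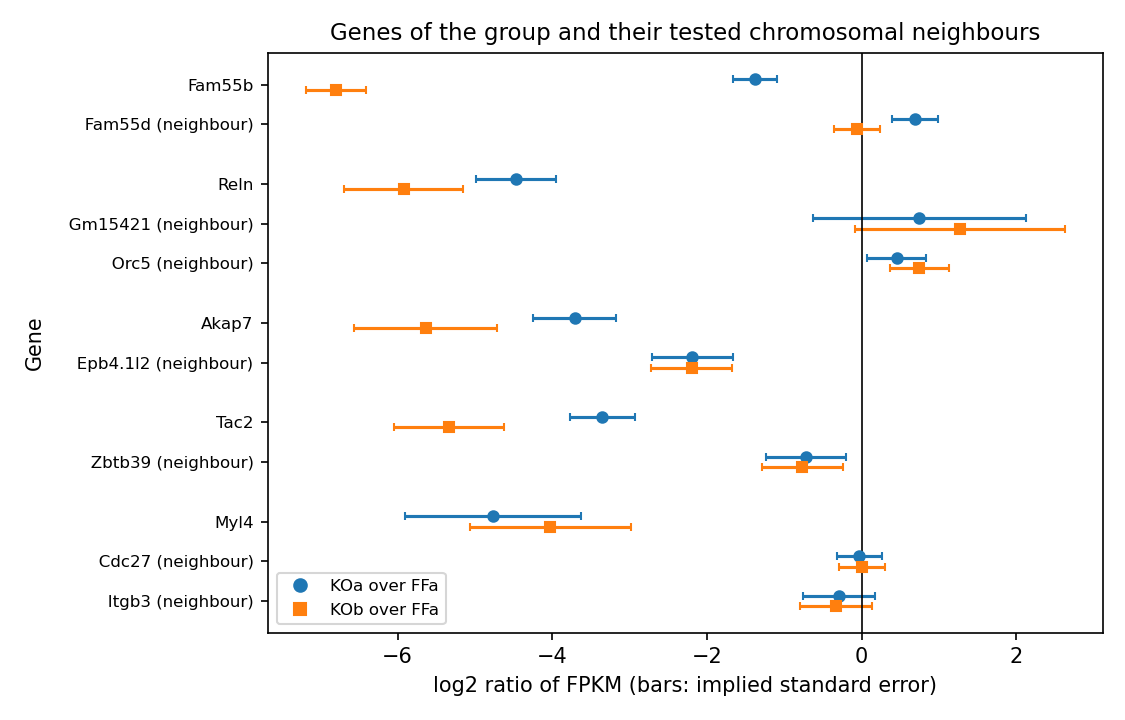
Log2 ratio of FPKM against FFa for 5 of the genes and their tested neighbours on the chromosome, KOa as circles and KOb as squares, with the implied standard error as bars. Cdc27 lies at 0 beside Myl4, Fam55d lies near or above 0 beside Fam55b, and Epb4.1l2 lies at about -2.2 in both mutants beside Akap7.

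The genes whose pair of ratios against FFa lay nearest to each of the 8 were found by distance in log2 units over the 2 ratios, which share the FFa level. The nearest to Reln was Slc30a10, a manganese transporter gene, at a distance of 0.187 and levels of 3.07, 0.132 and 0.0449 FPKM, and it was also the nearest to Cd36, at 0.314. Dach1, a transcriptional regulator, was nearest to Tac2 at 0.211, and Scrg1 to Akap7 at 0.122. Fam129c was nearest to Gpc4 at 0.185. For Myl4 the nearest were Spib and Fcrla, at 0.673 and 0.741. Of the genes named here only Fcrla is in the B cell marker list, which does not hold every B cell gene. Fn1, the fibronectin gene, was nearest to Gm12839 at 0.618. Fam55b had no gene within 2 log2 units, its nearest being Rnu12 at 2.15. The distances leave the errors of the ratios aside, and some of these genes were not called. Scrg1 was not called in KOb, at -5.68 ± 1.90 (q = 0.279 in the authors' deposited table). Dach1 was not called in KOa, at -3.28 ± 0.87 (q = 0.189 in that table), and Rnu12 was called in neither mutant.

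The 8 genes were not the only ones this low. The count covered 7993 genes with at least 1 FPKM in FFa, a level above 0 in each group and completed tests against FFa. Of these, 38 lay under 10% of FFa in both mutants, and 32 of the 38 were called in both. Genes at 0 in a mutant were left out, so the counts miss any gene that fell to 0. The 32 included 7 of the 8 genes, 7 genes from the lists of other blood cells, 6 of them B cell markers, and 18 in neither. The 32 were picked for low levels in both mutants, so what follows is a description. Between the mutants 19 of the 32 had a completed test. The authors' deposited table called 4 of the 19 lower and 0 higher in KOb, beside 6.19% and 10.0% of all tested genes. Those 4 were Cd36, Akap7, Tac2 and Vangl1, a planar polarity gene.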

How the data were processed

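RNA from 9 libraries was compared in 3 groups, with groups taken from the labels. The tools were Bowtie2 2.1.0, TopHat2 2.0.8b and Cuffdiff 2.1.1 on build mm10, per the submitters' processing notes. Annotation, filters, scaling and strandedness were not given in the sources used here. For each gene and group the authors deposited 1 FPKM value, and for each comparison a log2 fold change with no pseudocount, a test statistic (a score), and a p-value and q-value. Deposited q-values equal a Benjamini-Hochberg adjustment over 31813 tested results of the 3 comparisons together, and the smallest p, 5e-05, gives the q of 0.000619. Genes were called at a deposited q under 0.05 with a completed test.

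Percentages, medians, implied standard errors, distances and motif counts were computed here with Python 3.11.15, pandas 2.3.3 and numpy 2.4.6, and the scripts were tested on simulated data. No own test was possible, since no value per library was used, and depth per library is unknown. Whether libraries of 1 group stem from different mice is not in the labels, so the deposited p-values measure only the spread between these samples, which may be technical. The 8 genes and 19 gene lists were chosen with earlier results of these data known. Named genes were the 8, Trim28, the nearest neighbour on each side, the 2 nearest patterns per gene, and up to 3 called genes per list and comparison; others were named after their values were seen. Alternatives tried were pseudocounts, scalings, the mean, other readings of the statistic and an FPKM minimum of 1. Because the values are FPKM per group, planned fits without each library or with a replicate block were not run.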

Additional observations from a re-analysis of the deposited data

Results flagged for a closer look

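Results were looked at again where the authors' deposited test of the difference between the mutants was passed. The log2 ratio of KOb over KOa was -1.23 for Cd36, -5.42 for Fam55b, -1.93 for Akap7 and -1.98 for Tac2, and only Fam55b was called when that statistic was taken as standard normal.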

How the results depend on the processing

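No paired analysis was possible because the deposited table holds 1 value per gene and group, and for the same reason no library could be left out. The median log2 ratio of the 8 genes stayed negative under each pseudocount and scaling. In KOa against FFa it was -3.72 with a pseudocount of 0.1 FPKM, -2.25 with 1 FPKM and -3.95 with equal sums over genes other than globins. In KOb against FFa it was -3.60 with 1 FPKM and -4.87 with equal sums over all genes, and in KOb against KOa -0.42 and -0.55. Equal sums over all genes added -0.04, 0.91 and 0.95 to each log2 ratio of KOa over FFa, KOb over FFa and KOb over KOa, and equal sums without globins added 0.54, 0.51 and -0.03. Gpc4 in KOb against KOa turned to 0.41 with equal sums. Over single genes with an implied error, 74 alternative values stayed within it and 31 moved beyond it. Reln, Myl4 and Gpc4 between the mutants have none, and set against the median implied error of the other 5 genes, 10 of their values stayed within it, 4 moved beyond it and 1 turned. When the deposited statistic was taken as standard normal, genes called higher and lower numbered 271 and 534 in KOa against FFa, 384 and 627 in KOb against FFa, and 200 and 83 between the mutants, against 860 and 1516, 1352 and 1614, and 1052 and 648 as deposited. Related genes higher and lower were then 0 and 3, 2 and 3, and 1 and 0. Neighbours called higher were 0 in each mutant, those lower between the mutants 0, and of the 8 genes 1 remained called between the mutants. Related genes higher between the mutants numbered 3 at an FPKM of at least 1. Akap7 between the mutants had a q of 0.0680 when adjusted within that comparison.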

Other observations

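The 18 other genes that were called, above 0 and under 10% of FFa in both mutants were singled out after their values were seen. Some are known from B cells though not in the marker list: Pou2af1 was at 14.8 FPKM in FFa, 0.952 in KOa and 0.907 in KOb. Spib was at 7.12, 0.264 and 0.274 FPKM. Others are not B cell genes by textbook role. Popdc2, a cyclic AMP-binding membrane protein gene, was at 11.8, 0.899 and 0.414 FPKM, Atp1b1, a sodium pump subunit, at 5.93, 0.353 and 0.468, and F13a1, a clotting factor subunit made by monocytes and megakaryocytes, at 4.79, 0.318 and 0.197. Ifi27l2a, an interferon-inducible gene, was at 25.9, 2.21 and 2.05 FPKM. Vangl1 was at 7.05, 0.588 and 0.216 FPKM, with a log2 ratio between the mutants of -1.45 ± 0.83 (q = 0.0360 in the authors' deposited table).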
